A study of Mus musculus with 12 samples.

Results

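Lgr5, Ascl2, Smoc2, Tnfrsf19, Sox9, Sox4, Prox1, Cdca7, Rgmb and Igfbp4 are 10 genes known from the stem cells and early progenitors at the base of the intestinal crypt. They were listed by symbol rather than by a threshold on measured values, but with earlier results of these data known, and their RNA was followed in colon tumours and adjacent colon of mice. They are 10 of the 48448 genes that the transcript table sums to, and all 10 were among the 16970 genes with enough signal to test. The 12 RNA-seq libraries of C57BL/6 mouse colon were taken in a model of colitis-associated cancer and fell into 4 groups of 3 libraries. Flox adjacent and flox tumour libraries came from Synbindinflox mice, the controls, which carry the floxed allele. ΔIEC adjacent and ΔIEC tumour libraries came from SynbindinΔIEC mice, in which the gene is deleted (IEC is the usual abbreviation of intestinal epithelial cells). All 4 groups went through the cancer model, and no library came from a mouse outside it. The sources used here do not give the agents of the model, the ages of the mice or the promoter that drives the deletion. The labels do not say whether libraries of a group came from separate animals, and the p-values then describe only how far these libraries differ among themselves.

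The crypt is a pocket of the gut lining in which stem cells at the bottom divide and their daughters mature as they move up. Wnt proteins from the surrounding tissue hold the bottom cells in the stem cell state by stabilising β-catenin, which acts with TCF/LEF factors on DNA. R-spondins strengthen that signal by binding Lgr5 and its relatives, and BMP signals, stronger towards the surface, oppose it. Many intestinal tumours carry an active Wnt pathway, and crypt base genes are often expressed in them.

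The deposited unit is log2(FPKM + 1) of each transcript, where FPKM is fragments per kilobase of transcript per 1000000 mapped fragments. FPKM was recovered from it and added up over the transcripts of a gene, and values are comparable between genes because they are per length. Read counts were not analysed here, so sequencing depth is unknown. A library held 534806 to 821487 FPKM in all, with 14757 to 15893 genes at 1 FPKM or more. Trappc4, the gene of Synbindin, was at 16.8 to 17.4 FPKM in flox adjacent and 10.2 to 12.6 in ΔIEC adjacent tissue, and at 17.5 to 20.9 in flox and 9.91 to 12.7 in ΔIEC tumours. Although the source is labelled as colon epithelium, all 12 fibroblast genes of a marker list were above 0 in every library, and their summed FPKM ran from 97.5 to 455 in adjacent tissue and from 454 to 983 in tumours. The 12 epithelial genes summed to 7146 to 11935 FPKM in adjacent tissue and 5027 to 7250 in tumours. In such bulk tissue, more cells of a type and more RNA per cell cannot be told apart. Differences between groups were tested with limma on log2(FPKM + 1), and a gene was called where its p, adjusted over all 16970 genes by Benjamini-Hochberg, was below 0.05. Log2 differences are on that scale, where the added 1 shrinks the change of weakly expressed genes.

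Start regions are shown for 4 members that rose in tumours of both genotypes and for Rgmb, the member that was lower there, so that they can be read beside each other. RefSeq windows on GRCm38.p6, from 250 bases before to 50 bases after a start, matched 7 of the 10 members, with 11 windows. They were searched on both strands for CTTTGA, a core of TCF/LEF sites, and CAGCTG, an E-box of the kind basic helix-loop-helix factors bind. The motifs do not overlap each other in these windows. CTTTGA (or its complement TCAAAG) was in 1 of the 11 windows and in 16.0% of 32851 promoters of the same length. CAGCTG was in 2 of the 11 windows and in 16.3% of all promoters. The 250 bases before the start are printed 5′ to 3′ on the gene's strand, which is minus for all 5, with capitals marking a motif.
Tnfrsf19, chr14:61037988-61038237: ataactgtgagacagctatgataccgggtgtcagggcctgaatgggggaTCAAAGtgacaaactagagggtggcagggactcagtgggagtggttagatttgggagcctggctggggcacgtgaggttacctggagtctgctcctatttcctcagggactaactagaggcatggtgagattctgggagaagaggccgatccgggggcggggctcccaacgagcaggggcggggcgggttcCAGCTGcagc
Sox4, chr13:28953700-28953949: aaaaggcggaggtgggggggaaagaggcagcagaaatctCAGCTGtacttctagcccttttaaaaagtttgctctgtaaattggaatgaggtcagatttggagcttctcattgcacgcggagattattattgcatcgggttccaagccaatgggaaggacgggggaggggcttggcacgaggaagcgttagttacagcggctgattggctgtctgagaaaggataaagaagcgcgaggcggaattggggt
Ascl2, chr7:142969265-142969514: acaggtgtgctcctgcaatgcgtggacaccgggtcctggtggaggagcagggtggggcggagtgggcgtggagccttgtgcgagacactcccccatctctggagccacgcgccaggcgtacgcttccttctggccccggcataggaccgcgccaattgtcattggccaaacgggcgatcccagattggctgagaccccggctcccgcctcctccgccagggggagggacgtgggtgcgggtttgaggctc
Prox1, chr1:190170828-190171077: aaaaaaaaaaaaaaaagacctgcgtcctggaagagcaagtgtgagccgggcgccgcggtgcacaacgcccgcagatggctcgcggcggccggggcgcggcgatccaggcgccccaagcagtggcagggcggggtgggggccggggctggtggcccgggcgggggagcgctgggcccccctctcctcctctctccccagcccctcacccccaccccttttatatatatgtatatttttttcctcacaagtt
Rgmb, chr17:15826567-15826816: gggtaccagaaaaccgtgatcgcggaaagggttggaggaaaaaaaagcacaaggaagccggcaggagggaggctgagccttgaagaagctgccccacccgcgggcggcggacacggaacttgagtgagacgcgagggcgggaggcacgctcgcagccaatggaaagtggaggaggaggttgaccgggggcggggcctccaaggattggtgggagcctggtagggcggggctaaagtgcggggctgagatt
The printed Tnfrsf19 window had both motifs, with first bases at -201 (CTTTGA) and -10 (CAGCTG) counted from its start, and Sox4 had the E-box at -211. The windows not printed held neither motif. They are those of Igfbp4 and Cdca7 and the other windows of Tnfrsf19, Prox1 and Rgmb. Igfbp4 was also called higher in tumours of both genotypes. The start of the printed Prox1 window had no annotated transcript start of the gene within 50 bases. A match is a description of letters, not of binding. Lgr5, Smoc2 and Sox9 have no window in the table.

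**Figure D1:**
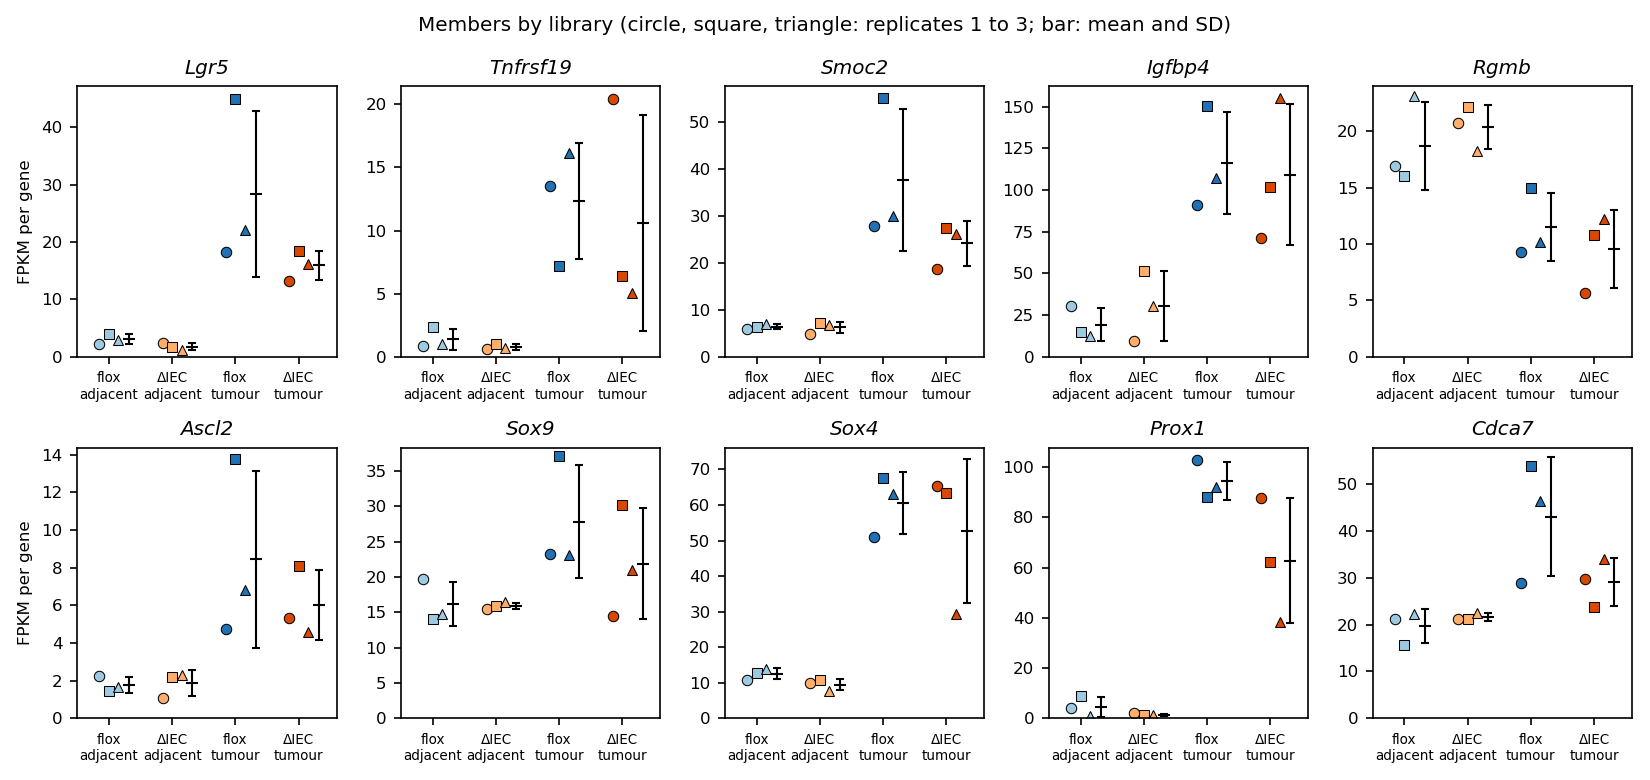
FPKM of each gene (vertical axes, each from 0) in the 12 libraries, by group; circles, squares and triangles are replicates 1, 2 and 3, and black bars give the mean and SD of 3. Rgmb is lower in every tumour than in every adjacent library of its genotype, and Prox1 runs from at most 8.88 in adjacent tissue to 38.3 to 102.7 in tumours.

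In adjacent tissue the 10 genes covered a range of levels. Cdca7, Igfbp4, Rgmb and Sox9 were the most abundant, with means of 15.9 to 30.3 FPKM in both genotypes, followed by Sox4 and Smoc2. Lgr5, Ascl2, Prox1 and Tnfrsf19 were below 5 FPKM on average. In flox adjacent tissue the libraries of Cdca7, Igfbp4, Rgmb and Sox9 overlapped in value, as did those next to each other in order among Prox1, Lgr5, Ascl2 and Tnfrsf19, so neighbours within either set do not differ beyond their spread. Sox4 (10.8 to 14.0) lay apart from Smoc2 (5.97 to 7.04). In tumours the order was different. Igfbp4 and Prox1 led with means of 116 ± 30.6 and 94.3 ± 7.54 FPKM (SD, n = 3) in flox tumours, where their libraries overlapped, and Sox4 followed with 60.6 ± 8.67. These are sums over transcripts, and 55.1% of the Igfbp4 sum was in a transcript without a coding frame. Its main coding transcript, Igfbp4-201, was at 40.4, 64.2 and 41.7 FPKM in flox tumours. Rgmb and Ascl2 were the least abundant in tumours of both genotypes.

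The comparison of tumour with adjacent tissue asks which crypt base genes differ between them within a genotype. In flox mice 9 of the 10 genes were called higher and none lower, where 16.6% of all tested genes were called higher and 19.7% lower. In ΔIEC mice 7 were called higher and 1, Rgmb, lower, where 13.9% of genes were called higher and 15.5% lower (36.3% of genes were called in either direction in flox and 29.4% in ΔIEC mice). The median log2 difference of the 10 genes was 2.25 in flox and 1.90 in ΔIEC mice, beside -0.01 and -0.03 over all tested genes. In flox mice 9 genes had no tumour library within the adjacent range on the high side, and Rgmb none on the low side, as 26.4% and 27.1% of all genes did. The same held for 8 genes and Rgmb in ΔIEC mice (20.8% and 22.9% of all genes), with Sox9 overlapping. The flox and ΔIEC comparisons share no library, but they share 1 estimate of the spread.

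**Figure D2:**
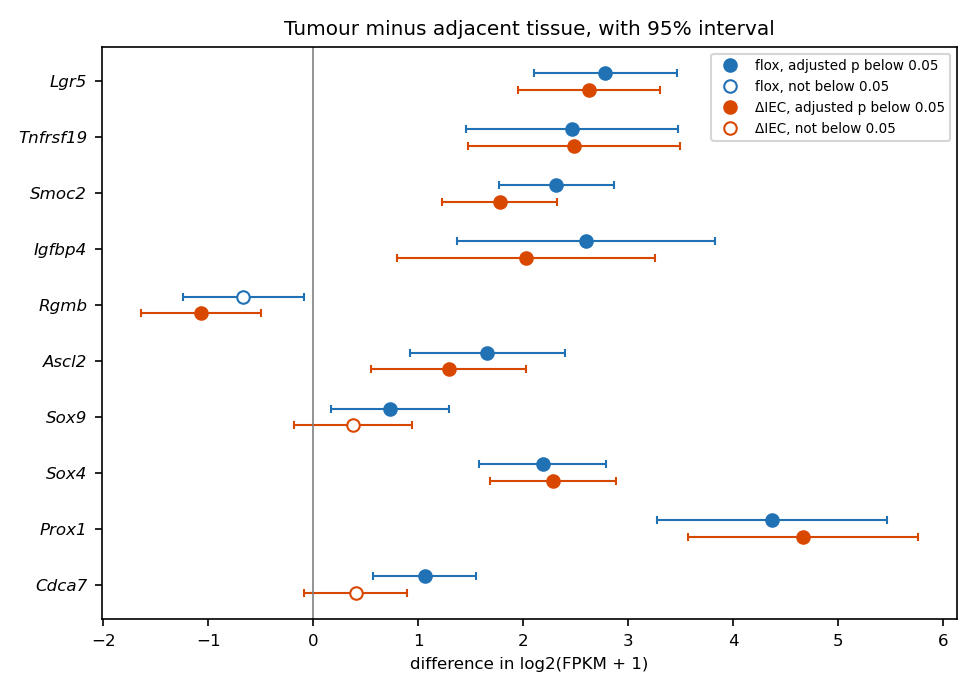
Difference in log2(FPKM + 1) between tumour and adjacent tissue (horizontal axis) for each gene, in flox (blue) and ΔIEC (orange) mice, with the 95% interval from limma; filled points have an adjusted p below 0.05. The 17 filled points are Rgmb in ΔIEC mice on the left of 0 and 16 on the right.

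Lgr5 (ENSMUSG00000020140, GRCm38 chr10:115450311-115587780, minus strand) encodes the R-spondin receptor by which crypt base stem cells are best known. In flox adjacent replicates 1, 2 and 3 it was at 2.22, 3.95 and 2.95 FPKM, and in flox tumours at 18.3, 45.0 and 22.1. In ΔIEC adjacent tissue it was at 2.32, 1.79 and 1.17, and in ΔIEC tumours at 13.2, 18.3 and 16.2. Every tumour was above every adjacent library, with the second flox tumour far above the rest. Lgr5 rose by a log2 difference of 2.78 (SE 0.306, limma adjusted p = 3.70e-04) in flox mice and by 2.63 (adjusted p = 9.04e-04) in ΔIEC mice, 9.35 and 9.04 times in mean FPKM. These ranked 130 and 149 among 16970 differences from the highest.

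Of the Lgr5 FPKM, 56.8% was assigned to the coding transcript Lgr5-201 and 19.1% to Lgr5-202, which retains an intron. With coding transcripts alone the log2 differences were 2.46 (adjusted p = 5.54e-04) and 2.23 (adjusted p = 0.00155), so the rise was also present without the retained intron forms. A930009A15Rik overlaps Lgr5 on the opposite strand and was at 0 to 0.390 FPKM in adjacent tissue and 0.820 to 2.42 in tumours. The libraries keep strand, but the sources used here do not say whether the counting used it.

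Tnfrsf19, also called Troy, encodes a TNF receptor family member that marks crypt base cells and is a Wnt target (ENSMUSG00000060548, chr14:60963875-61046490, minus strand). It was the least abundant of the 10 genes in adjacent tissue, at 0.830, 2.34 and 1.01 FPKM in flox and 0.600, 1.05 and 0.668 in ΔIEC replicates 1, 2 and 3. In tumours it was at 13.5, 7.23 and 16.2 FPKM in flox and 20.4, 6.39 and 5.02 in ΔIEC mice. Tumours did not overlap with adjacent tissue, and the 6 tumours were spread over a wide range. Tnfrsf19 rose by 2.46 (SE 0.455, limma adjusted p = 0.00277) in flox mice and by 2.48 (adjusted p = 0.00409) in ΔIEC mice. The transcript Tnfrsf19-202, whose start lies within 50 bases of the start printed above, held 37.5% of the gene's FPKM, at 2.2e-04 to 0.461 in adjacent libraries and 1.04 to 8.72 in tumours. Estimates that split a gene between transcripts are uncertain at such low levels, and Tnfrsf19-201 held the rest.

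Smoc2 encodes a secreted calcium-binding matrix protein of the Lgr5 stem cell signature (ENSMUSG00000023886, chr17:14279506-14404790, plus strand). It was at 5.97, 6.30 and 7.04 FPKM in flox and 4.96, 7.20 and 6.84 in ΔIEC adjacent tissue, and at 27.9, 55.3 and 30.1 in flox and 18.7, 27.6 and 26.2 in ΔIEC tumours. The adjacent libraries were close together and all tumours above them, with the same flox tumour highest as for Lgr5. Smoc2 rose by 2.32 (SE 0.247, limma adjusted p = 3.46e-04) in flox mice and by 1.78 (adjusted p = 0.00153) in ΔIEC mice, and all of its FPKM was in 1 coding transcript.

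Igfbp4 encodes a secreted protein that binds insulin-like growth factors and can also dampen Wnt signalling (ENSMUSG00000017493, chr11:99041244-99054392, plus strand). It was at 30.4, 15.002 and 12.6 FPKM in flox and 9.48, 51.3 and 30.2 in ΔIEC adjacent tissue, and at 91.3, 150.5 and 107 in flox and 71.0, 102 and 155 in ΔIEC tumours. Tumours lay above adjacent tissue, while the adjacent libraries themselves differed by more than those of any other abundant gene of the 10. Igfbp4 rose by 2.60 (SE 0.552, limma adjusted p = 0.00582) in flox mice and by 2.03 (adjusted p = 0.0216) in ΔIEC mice. The ΔIEC call was lost without ΔIEC adjacent replicate 1 (1.38, adjusted p = 0.0521) and without ΔIEC tumour replicates 2 (adjusted p = 0.0535) or 3 (adjusted p = 0.0639), and with only the groups compared in the fit (adjusted p = 0.0696). Of its FPKM, 55.1% was in Igfbp4-203, a processed transcript without a coding frame, and 41.5% in the coding Igfbp4-201.

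Fibroblasts also express Igfbp4, and the libraries high in Igfbp4 were high in the 12 fibroblast genes. Their summed FPKM was 349, 101 and 152 in flox and 97.5, 455 and 379 in ΔIEC adjacent tissue, and 775, 983 and 538 in flox and 454, 710 and 977 in ΔIEC tumours. Among adjacent libraries the 3 with the highest Igfbp4 were the 3 with the highest fibroblast sum. Of the 12 fibroblast genes, 8 were called higher in flox tumours (16.6% of all genes) and 2 in ΔIEC tumours, near the 13.9% of all genes there, with none lower, among them Fn1, a matrix protein, by 2.53 and 2.00 (adjusted p = 0.00390 and 0.0144). None of the 12 was at 0 in any library. The part of these cells in the Igfbp4 difference was not tested.

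**Figure D3:**
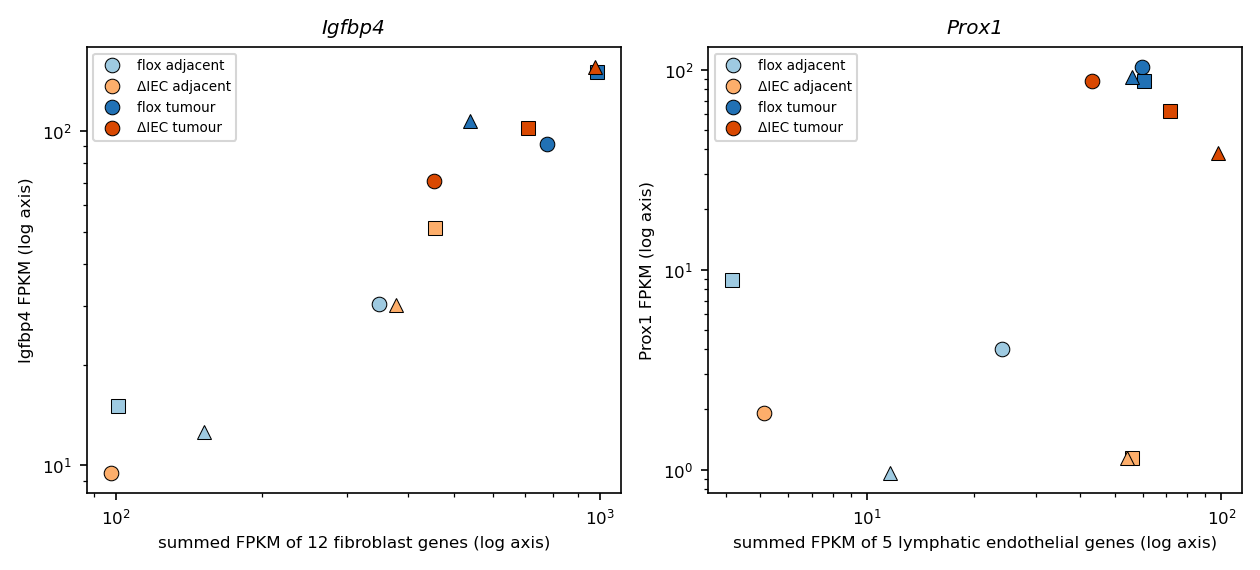
Igfbp4 against the summed FPKM of 12 fibroblast genes (left) and Prox1 against the summed FPKM of 5 lymphatic endothelial genes (right) in 12 libraries, all axes logarithmic; colours are groups, and circles, squares and triangles are replicates 1, 2 and 3. ΔIEC adjacent replicate 2 has a fibroblast sum of 455 with Igfbp4 at 51.3, and ΔIEC adjacent replicates 2 and 3 have lymphatic sums of 56.1 and 54.2 with Prox1 near 1.15.

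Rgmb encodes a membrane-anchored co-receptor for BMPs that also binds neogenin (ENSMUSG00000048027, chr17:15803188-15831039, minus strand). It was the exception among the 10 genes, at 17.0, 16.0 and 23.1 FPKM in flox and 20.7, 22.2 and 18.2 in ΔIEC adjacent tissue, and at 9.30, 14.96 and 10.2 in flox and 5.69, 10.8 and 12.2 in ΔIEC tumours. Every tumour was below every adjacent library. Rgmb fell by 1.07 on the log2 scale (SE 0.259, limma adjusted p = 0.0127) in ΔIEC mice, and the flox difference of -0.67 was not called (adjusted p = 0.0671). The flox difference was called without flox tumour replicate 2 (-0.86, adjusted p = 0.0428) or without ΔIEC tumour replicate 1 (adjusted p = 0.0222). Libraries were also centred on 12 epithelial genes, of which 11 were called lower in flox and 5 in ΔIEC tumours. The Rgmb differences were then -0.02 in flox (limma adjusted p = 0.964) and -0.79 in ΔIEC mice (adjusted p = 0.0730), and neither was called. Neo1, which encodes neogenin, was at 13.2 to 19.9 FPKM in adjacent tissue and 8.85 to 13.5 in tumours, and fell by 0.64 on the log2 scale in flox mice (limma adjusted p = 0.0220), while its ΔIEC difference of -0.47 was not called (adjusted p = 0.0786).

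Ascl2 encodes a basic helix-loop-helix factor that holds the identity of Lgr5 stem cells (ENSMUSG00000009248, chr7:142966829-142969264, minus strand). It was at 2.27, 1.45 and 1.65 FPKM in flox and 1.10, 2.21 and 2.31 in ΔIEC adjacent tissue, and at 4.76, 13.7 and 6.81 in flox and 5.35, 8.11 and 4.61 in ΔIEC tumours. Groups of the 2 tissues did not overlap, and the second flox tumour was again highest. Ascl2 rose by 1.66 (SE 0.333, limma adjusted p = 0.00420) in flox mice and by 1.29 (adjusted p = 0.0168) in ΔIEC mice. Without ΔIEC adjacent replicate 1 or ΔIEC tumour replicate 2 the ΔIEC call was lost, with log2 differences of 1.08 and 1.09 (adjusted p = 0.0601 and 0.0619).

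Sox9 encodes an HMG-box factor of the crypt base and of progenitors, itself a Wnt target (ENSMUSG00000000567, chr11:112782224-112787760, plus strand). It was at 19.7, 14.0 and 14.7 FPKM in flox and 15.5, 15.9 and 16.4 in ΔIEC adjacent tissue, and at 23.3, 37.1 and 23.2 in flox and 14.5, 30.2 and 21.0 in ΔIEC tumours. ΔIEC tumour replicate 1 was below all 3 ΔIEC adjacent libraries. Sox9 was called higher in flox mice by 0.73 (SE 0.253, limma adjusted p = 0.0451), a value close to the threshold, and not in ΔIEC mice (0.38, adjusted p = 0.287). The flox call held in 3 of 12 fits that left out 1 library, with adjusted p from 0.0235 to 0.155, and in 9 of 14 other alternatives, with adjusted p from 0.00330 to 0.167. Among those that lost it were no filter on low values (adjusted p = 0.0772) and median centring (adjusted p = 0.0558).

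Sox4 encodes a related HMG-box factor of progenitor cells that is raised in many tumours (ENSMUSG00000076431, chr13:28948919-28953713, minus strand). It was at 10.8, 12.8 and 14.0 FPKM in flox and 9.95, 10.6 and 7.73 in ΔIEC adjacent tissue, and at 50.9, 67.7 and 63.2 in flox and 65.4, 63.3 and 29.2 in ΔIEC tumours. ΔIEC tumour replicate 3 lay well below the other 5 tumours and above all adjacent libraries. Gm26735, which overlaps Sox4 on the opposite strand, reached 0.259 FPKM in adjacent tissue and 2.51 in tumours. Sox4 rose by 2.18 (SE 0.271, limma adjusted p = 5.18e-04) in flox mice and by 2.29 (adjusted p = 9.13e-04) in ΔIEC mice.

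Prox1 encodes a homeobox factor that sets lymphatic endothelial fate and is also switched on in Wnt-active intestinal tumours (ENSMUSG00000010175, chr1:190118035-190170714, minus strand). It was at 4.03, 8.88 and 0.962 FPKM in flox and 1.93, 1.15 and 1.14 in ΔIEC adjacent tissue, and at 102.7, 88.1 and 92.2 in flox and 87.8, 62.1 and 38.3 in ΔIEC tumours. No other gene of the 10 moved as far, and in tumours it was the second most abundant. Prox1 rose by 4.37 (SE 0.492, limma adjusted p = 4.12e-04) in flox mice and by 4.67 (adjusted p = 7.48e-04) in ΔIEC mice, ranks 22 and 23 of 16970 differences. The ratio of mean FPKM was 20.4 in flox and 44.6 in ΔIEC mice, and flox adjacent replicate 2, at 8.88, held most of the flox adjacent level; without it the flox difference was 4.92.

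Lymphatic endothelium and enteroendocrine cells also express Prox1, so their markers were read beside it. The 5 lymphatic genes summed to 24.0, 4.16 and 11.7 FPKM in flox and 5.13, 56.1 and 54.2 in ΔIEC adjacent tissue, and to 55.9 to 60.4 in flox and 43.2 to 97.7 in ΔIEC tumours. ΔIEC adjacent replicates 2 and 3 had lymphatic sums within the range of the tumours, with Prox1 at 1.15 and 1.14 FPKM. Flox adjacent replicate 2 had the highest adjacent Prox1 and the lowest lymphatic sum. In tumours the lymphatic sum and Prox1 were both higher than in flox adjacent tissue, and the part of lymphatic cells in the Prox1 difference was not tested. Of the 5 lymphatic genes 4 were called higher in flox tumours, where 16.6% of all genes were. In ΔIEC tumours 1 was called higher, near the 13.9% of all genes there. It was Pdpn, a membrane glycoprotein, called in both genotypes (1.78 and 1.57, limma adjusted p = 0.0244 and 0.0466). The 8 enteroendocrine genes summed to 235 to 345 FPKM in adjacent tissue and to 8.52 to 77.8 in tumours. Of them 7 were called lower in flox and 6 in ΔIEC tumours (19.7% and 15.5% of all genes).

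Antisense transcripts at Prox1 followed the gene. Gm28172 was at 0 to 0.676 FPKM in adjacent tissue and 1.64 to 8.08 in tumours, and Prox1os at 0 to 0.172 and 0.491 to 2.76. Both overlap Prox1 on the opposite strand, and reads of overlapping genes could have been split between them if the counting ignored strand. Of the Prox1 FPKM, 69.0% was in Prox1-202, and all 3 transcripts above 10% were coding.

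Cdca7 encodes a zinc finger protein, a Myc target that works with the chromatin remodeller Hells (ENSMUSG00000055612, chr2:72476159-72486893, plus strand). It was at 21.2, 15.6 and 22.2 FPKM in flox and 21.1, 21.2 and 22.6 in ΔIEC adjacent tissue, and at 29.0, 53.8 and 46.5 in flox and 29.8, 23.8 and 34.0 in ΔIEC tumours. The libraries of the 2 tissues did not overlap in either genotype, although the lowest ΔIEC tumour was just above the highest ΔIEC adjacent library. Of its FPKM, 60.3% was in the coding Cdca7-201 and 27.3% in Cdca7-204, a processed transcript without a coding frame. Cdca7 rose by 1.06 (SE 0.220, limma adjusted p = 0.00493) in flox mice and was not called in ΔIEC mice (0.40, adjusted p = 0.192). After protein-coding genes were rescaled to 1 common total, the ΔIEC difference was 0.72 and called (adjusted p = 0.0314).

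That rescaling bears on every tumour difference. It was run on 14484 protein-coding genes, whose median log2 difference was 0.43 in flox and 0.28 in ΔIEC mice, where the median over all 16970 genes as deposited was -0.01 and -0.03. The share of called genes that were higher went from 45.7% to 80.1% in flox and from 47.3% to 76.4% in ΔIEC mice. Centring on the epithelial genes moved the median over the 16970 genes to 0.64 and 0.25, with 89.5% and 66.7% of calls higher. After rescaling, 9 of the 10 genes were called in flox mice, all higher, where 42.5% of the protein-coding genes were called higher, and 8 were called higher and Rgmb lower in ΔIEC mice, where 29.3% were called higher and 9.04% lower. After centring, 9 were called higher in flox and 7 in ΔIEC mice, where 45.2% and 10.8% of all genes were.

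The crypt base genes were set beside other genes of the pathway. Of 15 tested Wnt targets and feedback genes, 13 were called higher in flox tumours and 13 in ΔIEC tumours, with none lower. Over all genes 16.6% and 13.9% were called higher. The median of the list was 1.99 in both, beside -0.01 and -0.03 over all genes. Nkd1, an inhibitor induced by Wnt, was at 0.792 to 16.7 FPKM in adjacent tissue and 54.9 to 131 in tumours, and rose by 4.16 and 5.01 (limma adjusted p = 9.87e-04 and 0.00106). Wif1, a secreted Wnt binder, rose by 4.37 and 5.24, and Notum, an enzyme that inactivates Wnt, by 4.12 and 4.90. Apcdd1, a membrane inhibitor, rose by 4.21 and 4.17 (adjusted p = 0.00971 and 0.0127). Ephb2 and Ephb3, receptors that position cells along the crypt, were the 2 not called in either genotype, and are named after their values were seen. Ephb2 was at 21.6 to 37.8 FPKM in adjacent tissue and 21.7 to 38.7 in tumours.

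Genes that receive R-spondin and Wnt signals were called in both directions. Of 8 tested, 2 were called higher and 3 lower in flox tumours (16.6% and 19.7% of all genes), and 1 higher and 3 lower in ΔIEC tumours (13.9% and 15.5% of all genes). The higher calls are near those shares. Lgr6, an R-spondin receptor like Lgr5, was at 0 to 0.520 FPKM in adjacent tissue and 0.985 to 10.9 in tumours, and rose by 2.14 and 2.05 (limma adjusted p = 0.0159 and 0.0231). No adjacent library reached the 1 FPKM of the filter, so Lgr6 entered the test only through tumours, where it is high. Lgr4, the widely expressed relative, named here after its values were seen, was more abundant than Lgr6 in every library and than Lgr5 in every adjacent library, at 31.1 to 68.4 FPKM in adjacent tissue and 26.2 to 40.9 in tumours, and was not called (-0.62 and -0.44). Fzd5, a Wnt receptor, fell by 1.75 and 1.61 on the log2 scale, and Tcf7l2, the main TCF factor of the gut, fell by 0.96 in each. The median of this list was -0.27 and -0.06 and changed sign with rescaling, to 0.52 and 0.49.

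Of 14 other genes linked to the crypt base, 5 were called higher and 2 lower in flox tumours (16.6% and 19.7% of all genes), and 5 higher and 1 lower in ΔIEC tumours (13.9% and 15.5% of all genes), with a median of 0.07 and 0.12. The lower calls are no more frequent than over all genes. Mex3a, an RNA-binding protein of slow-cycling crypt cells, rose by 2.58 and 2.27 (limma adjusted p = 2.91e-04 and 5.25e-04), and Phlda1 by 2.01 and 1.84. Hopx, a homeodomain protein, rose by 1.52 and 1.32, and Msi1, an RNA-binding protein, by 1.49 and 1.57. Aqp4, a water channel, went the other way, from 57.4 to 209.8 FPKM in adjacent tissue to 8.47 to 61.8 in tumours (-3.00 and -3.05, limma adjusted p = 0.00457 and 0.00593). Olfm4, a stem cell marker of the small intestine, also named after its values were seen, was at 0 to 0.250 FPKM in the 12 libraries and was not tested.

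Ligands and partners of the members were read from a list of 8. Igf1, a ligand that Igfbp4 binds, was at 0.984 to 5.69 FPKM in adjacent tissue and 10.9 to 23.7 in tumours, and rose by 2.58 and 2.16 (limma adjusted p = 0.00166 and 0.00561). Igf2r, which clears Igf2, fell by 0.79 and 0.90 on the log2 scale. In all, 2 were called higher and 2 lower in flox mice (16.6% and 19.7% of all genes). In ΔIEC mice 1 was called in each direction (13.9% and 15.5% of all genes). These small counts are near the shares of all genes.

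Among the 6 tumours the 10 genes fell into different orders. The second flox tumour was the highest for 7 of the 10 genes, ΔIEC tumour replicate 1 the lowest for 5 and ΔIEC tumour replicate 3 the lowest for 4. Lgr5 and Smoc2 had nearly the same order of levels (Pearson r = 0.985 over 6 tumours, on log2 values). Tnfrsf19 differed, highest in ΔIEC tumour replicate 1 and low in the second flox tumour, with r of -0.304 with Lgr5 and -0.807 with Igfbp4. Apcdd1, a Wnt feedback gene picked out here after its values were seen, was at 96.7, 27.8 and 99.8 FPKM in flox and 144, 11.4 and 15.3 in ΔIEC tumours, high in the same 3 tumours as Tnfrsf19. ΔIEC tumour replicate 3 was lowest for Sox4, Prox1, Tnfrsf19 and Ascl2, and had the highest fibroblast sum of the ΔIEC tumours (977). The second flox tumour, the highest for 7 genes, had the highest fibroblast sum of all 6 tumours (983). The values share libraries and scale, and these correlations carry no test.

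**Figure D4:**
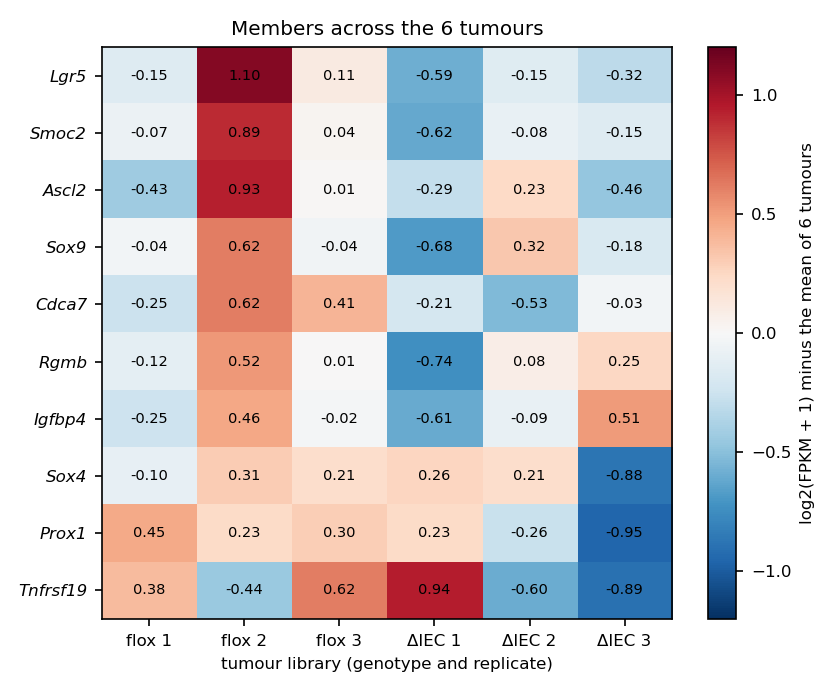
Log2(FPKM + 1) of each gene (rows) in each of the 6 tumours (columns) minus its mean over them; red is above and blue below the mean, with the value printed. Flox tumour replicate 2 stands out in Lgr5, Ascl2 and Smoc2 (1.10, 0.93 and 0.89), and Tnfrsf19 runs from -0.89 to 0.94.

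Across all 12 libraries, log2 values of Rgmb correlated negatively with those of the other 9 genes (r from -0.915 to -0.258), and the other 36 pairs positively (0.443 to 0.972). The points share tissue and genotype groups, so the gap between tumour and adjacent tissue enters each value. Within the 6 tumours Rgmb and Igfbp4 instead had r = 0.924, as both were low in ΔIEC tumour replicate 1 and high in flox tumour replicate 2. Of 9423 protein-coding genes with a mean of at least 5 FPKM, those most like Lgr5 over the 12 libraries were Plk2 (r = 0.986), Thbs2 (0.980), Pabpc1 (0.972), Sorcs2 (0.969) and Alox12 (0.967). Plk2 is a kinase and Thbs2 a matrix protein. Thbs2 and Alox12 had means below 1 FPKM in both adjacent groups, so they met the bound of 5 only through tumours. Those most like the mean of the 10 genes, each scaled to the same spread, were N4bp3 (0.992), Smarca4 (0.983), Sh3pxd2b (0.977), Rbfox2 (0.976) and Thbs2 (0.974).

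**Figure D5:**
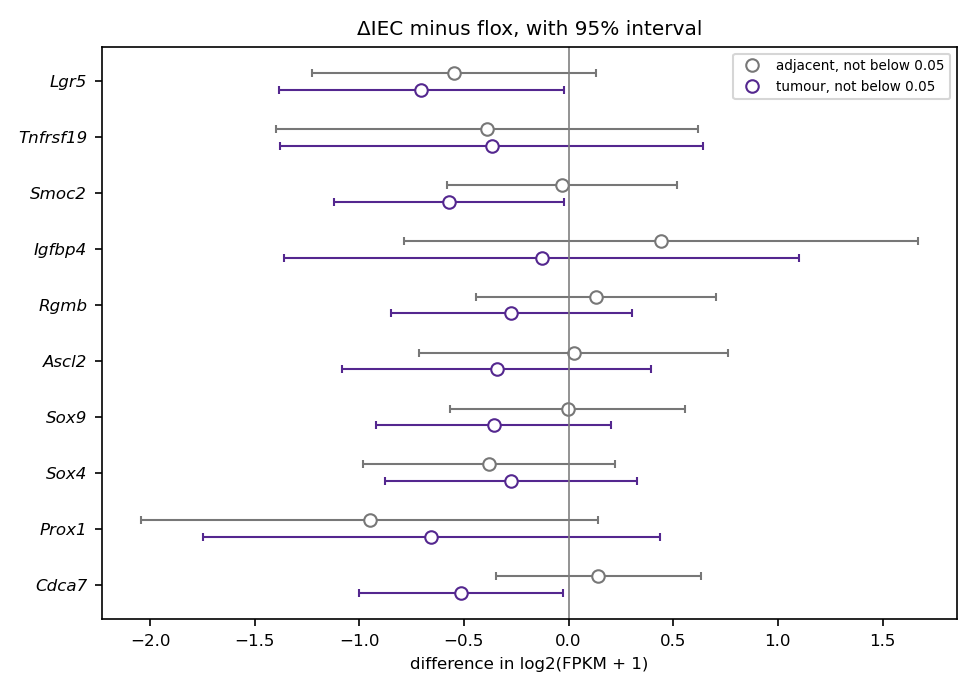
Difference in log2(FPKM + 1) between ΔIEC and flox mice (horizontal axis) for each gene, in adjacent tissue (grey) and tumours (purple), with the 95% interval from limma; open points have an adjusted p of at least 0.05. All 10 tumour points lie on the left of 0, from -0.70 to -0.13, and none is called.

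ΔIEC tumours were set against flox tumours to ask whether deletion of Synbindin goes with a different level of these genes in tumours. None of the 10 was called, and 0 of 16970 genes were (0%; 317 genes, 1.87%, had an unadjusted limma p below 0.05). The tested genes include Trappc4, the deleted gene, at 17.5 to 20.9 FPKM in flox and 9.91 to 12.7 in ΔIEC tumours. It was not called either, so a lack of calls does not show a lack of change. All 10 genes had a lower mean in ΔIEC tumours, with a median log2 difference of -0.36 beside -0.01 over all genes, and this direction held under each of the scalings tried. The 10 genes were read from the same 6 tumours, so their shared direction is not 10 separate observations. Lgr5 was at 28.4 ± 14.5 FPKM (SD, n = 3) in tumours of flox mice and 15.9 ± 2.56 in those of ΔIEC mice (-0.70, 95% interval -1.38 to -0.02, limma unadjusted p = 0.0438, adjusted p = 1.00). Smoc2 was at 37.7 ± 15.2 and 24.2 ± 4.76 (-0.57, unadjusted p = 0.0425), and Cdca7 at 43.1 ± 12.7 and 29.2 ± 5.13 (-0.51, unadjusted p = 0.0408). Smoc2 and Prox1 were the 2 genes with every ΔIEC tumour below every flox tumour, as 3.74% of all genes were, and no gene of the 10 had the opposite order, as 3.03% of all genes did.

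These differences leaned on single libraries. Without flox tumour replicate 2 the Lgr5 difference was -0.33 and the Smoc2 difference -0.27, and those of Ascl2 and Igfbp4 changed sign. Without ΔIEC tumour replicate 3 the Prox1 difference was -0.35 instead of -0.66, and that of Sox4 changed sign (0.095). Without ΔIEC tumour replicate 1 those of Rgmb and Igfbp4 changed sign (0.027 and 0.14). The intervals allow sizeable differences in either direction for Igfbp4 (-1.36 to 1.10), Tnfrsf19 (-1.38 to 0.64) and Prox1 (-1.75 to 0.44).

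In adjacent tissue no gene of the 10 was called for genotype either, with 0 of 16970 called in all (0%; 702 genes, 4.14%, at an unadjusted limma p below 0.05). Trappc4, at 16.8 to 17.4 FPKM in flox and 10.2 to 12.6 in ΔIEC adjacent tissue, was not called here either. Without ΔIEC adjacent replicate 1, 299 genes were called, none of them among the 10. The differences ran from -0.95 for Prox1 and -0.55 for Lgr5 to 0.44 for Igfbp4, with a median of -0.02 (adjusted p = 0.931 to 0.999). Sox4 was the 1 gene with every ΔIEC library below every flox library (-0.38), as 5.14% of all genes were, and none had the opposite order (2.56% of all genes). The Prox1 value rested on flox adjacent replicate 2, without which it was -0.40. That library was also the highest in adjacent tissue for Lgr5, Tnfrsf19, Nkd1 (16.7 FPKM), Wif1 (15.1) and Apcdd1 (10.2). It was the lowest in adjacent tissue for Sox9, Cdca7 and Rgmb.

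Adjacent libraries also differed in markers of position along the colon. The 5 distal Hox genes summed to 163, 10.3 and 3.11 FPKM in flox and 31.1, 40.1 and 106 in ΔIEC adjacent tissue, and to 118 to 158 in tumours. In tumours 4 of the 5 were called higher in each genotype (16.6% of all genes in flox and 13.9% in ΔIEC mice). What part position has in the differences between tumour and adjacent tissue was not tested. Flox adjacent replicate 1 had the highest Hox sum of the adjacent libraries, above all tumours. Of the 10 genes it was the highest adjacent library for 1, Sox9 (19.7 FPKM), and the lowest for 0. Lgr5 was at 2.22 and Prox1 at 4.03 FPKM there, within the range of the other adjacent libraries.

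The interaction asks whether the tumour difference itself depends on genotype. It called 0 of 16970 genes (0%; 448, 2.64%, at an unadjusted limma p below 0.05) and none of the 10. The smallest p was for Cdca7, whose tumour difference in ΔIEC minus that in flox mice was -0.66 (limma unadjusted p = 0.0603, adjusted p = 1.00). With coding transcripts alone the Cdca7 value was -0.41 (limma unadjusted p = 0.138). So the calls of Sox9 and Cdca7 in flox mice alone, and of Rgmb in ΔIEC mice alone, are not shown to differ between genotypes.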

How the data were processed

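Total RNA of 12 mouse colon libraries was sequenced with a strand-specific kit, per the labels' protocols. FastQC, STAR 2.5, Cuffnorm and GRCm38 are named in the submitters' processing notes, with no role or order. The authors deposited log2(FPKM + 1) per transcript, 1 column per library. The sources used here do not give how FPKM was scaled between libraries or whether counting used strand.

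Each value was turned back to FPKM, and the 118004 of 123062 transcripts (95.9%) that matched GENCODE M21 on GRCm38 were summed per gene. Unmatched transcripts held 4.36% to 7.44% of the FPKM of a library. Genes with at least 1 FPKM in at least 3 of 12 libraries were tested (16970). The test was limma 3.58.1 in R 4.3.3 on log2(FPKM + 1) with a pseudocount of 1, all 4 groups in 1 model (8 residual degrees of freedom), and eBayes with trend and robust. It gave 5 contrasts, with Benjamini-Hochberg adjustment over all genes in each and a threshold of 0.05. The code was tested on simulated data. A rank or permutation test of 3 libraries against 3 cannot go below p = 0.1, so none was used.

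The 10 genes and the marker and pathway lists were chosen with earlier results of these data known. In each list the text names up to 4 called genes with the largest differences, and genes outside that rule are marked as named after their values were seen. Of 26 alternatives, 23 were planned, 12 of them leaving out 1 library each, and 3 were added after the data were seen.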

Additional observations from a re-analysis of the deposited data

How the results depend on the processing

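In tumour against adjacent tissue no gene of the 10 changed direction under any alternative. With 1 library left out 8 to 10 of them were called in flox and 6 to 8 in ΔIEC mice. The share of all genes called there ran from 22.9% to 39.6% in flox and from 17.1% to 30.0% in ΔIEC mice. Counts over all genes moved more, and the causes were not tested. Leaving out 1 library gave 3891 (without flox adjacent replicate 2) to 6725 calls in flox mice, beside 6163, and 2910 (without ΔIEC tumour replicate 1) to 5086 in ΔIEC mice, beside 4981. For genotype it gave 0 to 299 calls in adjacent tissue and 0 to 3 in tumours, and for the interaction 0 to 1. In ΔIEC mice 2564 genes were called with only the groups compared, and 2738 with epithelial centring. Between tumours of the genotypes 8 were called with no filter and 1 with only the groups compared. Without flox adjacent replicate 2 and ΔIEC tumour replicate 3, added after the data were seen, 3749 were called in flox mice, 3 for genotype in adjacent tissue and 2 for the interaction.

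Libraries with the same number in their titles did not deviate together (r from -0.401 to 0.190, 0 of 12 libraries best with their own number), nor did those with the same description code (r from -0.192 to 0.170 over 5 pairs). With a replicate block by title number 8 of the 10 genes were called in flox and 8 in ΔIEC mice (33.6% and 26.7% of all genes). With a block by code 9 and 8 were called (37.0% and 29.8% of all genes). With the code as a fixed term the block left 8 and 4 of the 10 genes (35.1% and 3.84% of all genes), and 651 genes in all in ΔIEC mice. ΔIEC adjacent replicate 1 and ΔIEC tumour replicate 1 share their code with no other library. In that fit they therefore add nothing to the ΔIEC difference. The ΔIEC calls lost there were Tnfrsf19 (adjusted p = 0.0833), Igfbp4 (0.122), Rgmb (0.156) and Ascl2 (0.187), with log2 differences of 1.85, 1.65, -0.76 and 1.13. The flox call of Sox9 was lost with the block by title number (0.0562) and with the fixed term (0.0622).

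The reversals were 47, in 14 results, all of genotype differences or interactions that were not called, with main values of at most 0.44 in size. For genotype in adjacent tissue Ascl2 was -0.059 with quantile normalization, -0.020 with median centring and -0.065 without both libraries named above. Sox9 was 0.020, 0.077 and 0.35 with quantile normalization, rescaling and epithelial centring, and Smoc2 was 0.044 and 0.32 with the last 2. Cdca7 was -0.12 with coding transcripts only and -0.0080 without both libraries. In tumours Sox4 was 0.095 without both. For the interaction Lgr5 was 0.036 with a pseudocount of 0.1 and 0.11 with the fixed term. Tnfrsf19 and Sox4 were -0.011 and -0.017 with rescaling, -0.61 and -0.054 with the fixed term, and -0.35 and -0.26 with epithelial centring, where Prox1 was -0.071. Leaving out 1 library gave, for genotype in adjacent tissue, Ascl2 -0.093 to 0.24, Smoc2 -0.12 to 0.11, Sox9 -0.092 to 0.14, Cdca7 -0.0080 to 0.23 and Igfbp4 -0.070 to 1.09. In tumours it gave Ascl2 -0.64 to 0.035, Sox4 -0.47 to 0.095, Rgmb -0.46 to 0.027 and Igfbp4 -0.42 to 0.14. For the interaction it gave Lgr5 -0.41 to 0.22, Ascl2 -0.67 to 0.011, Tnfrsf19 -0.54 to 0.38, Sox4 -0.094 to 0.47 and Prox1 -0.26 to 0.91. Depth is unknown, so values near 1 FPKM carry no counting interval.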

Other observations

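Genes of mature colon cell types were lower in tumours, in the same libraries in which most crypt base genes were higher. Over all genes 16.6% were called higher and 19.7% lower in flox tumours, and 13.9% and 15.5% in ΔIEC tumours. Of 10 absorptive colonocyte genes, 8 were called lower in flox and 7 in ΔIEC tumours. None was called higher (median log2 difference -4.22 and -2.64). Car4, a carbonic anhydrase of the surface epithelium, was at 328 to 1019 FPKM in adjacent tissue and 6.71 to 39.9 in tumours (-6.02 and -5.10, limma adjusted p = 2.99e-04 and 9.13e-04). Aqp8, a water channel, was at 56.3 to 296 and 0.697 to 8.996 FPKM. Of 8 goblet cell genes, 7 were called lower in flox and 8 in ΔIEC tumours (median -3.10 and -3.11). Zg16, a secreted lectin, was at 2263 to 4823 FPKM in adjacent tissue and 64.0 to 488 in tumours. Of 8 enteroendocrine genes, 7 were called lower in flox and 6 in ΔIEC tumours (median -3.08 and -2.44). Chga, a secretory granule protein, was at 17.9 to 91.9 and 0.405 to 5.10 FPKM.

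Tuft cell genes were split, with 1 of 5 called higher, near the share of all genes given above, and 3 called lower in each genotype. Avil, an actin-binding protein, was at 3.04 to 7.30 FPKM in adjacent tissue and 18.6 to 49.2 in tumours (2.68 and 2.58, limma adjusted p = 8.13e-04 and 0.00181). Dclk1, a kinase, was at 9.85 to 26.4 and 1.05 to 5.04 FPKM (-1.78 and -2.28). Of 12 general epithelial genes, 11 were called lower in flox and 5 in ΔIEC tumours (median -0.83 and -0.44). The difference was negative for 11 of them in each genotype. Cdx2, a homeobox factor of the intestine, fell by 4.32 and 3.58 on the log2 scale. Of 10 proliferation genes, 4 were called higher in flox and 2 in ΔIEC tumours, the latter near the 13.9% of all genes there. All 10 had positive differences in both genotypes (median 0.62 and 0.65). With protein-coding genes rescaled 10 and 7 were called higher, where 42.5% and 29.3% of the protein-coding genes were. Of 8 immune genes 2 were called higher in each genotype, near the share of all genes. Among them S100a8, a neutrophil protein, rose by 5.31 and 5.52. Of 6 blood endothelial genes, 3 were called higher in flox and 0 in ΔIEC tumours, where the smallest unadjusted limma p was 0.0216. All 6 had positive differences in both genotypes (median 1.42 and 0.69). None of 6 smooth muscle genes was called, with a smallest unadjusted limma p of 0.430 and 0.411. No gene of any list was called between genotypes.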
